A study of Homo sapiens with 197 samples.

Results

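The rows named Tet1 and UHRF1 are 2 of the 57 endogenous rows of a Nanostring panel that holds 75 rows in each lane. They were chosen on measured values, namely their level in SW39 cells and their correlation with the ATAD2 row, so these values are described below without a test. The panel was read in IMR90 cells, human fetal lung fibroblasts that are not transformed, each well infected with 1 retrovirus that encodes a kinase activated by a myristoylation signal, with total RNA collected 4 days later. After the HK1 lane was left out, 196 lanes were used, of which 3 came from the 2 IMR90 control wells, 2 from SW39 wells and 6 from a human reference RNA, and all others from kinase wells. The labels describe both IMR90 control wells as infected with the empty vector. The same words describe both SW39 wells, SW39 being a transformed derivative of IMR90. The paper, however, speaks of IMR90 or SW39 cells that were not infected when it reports the tag of the kinases. Whether the SW39 wells received the vector is therefore not settled here. The reference RNA is a commercial pool from cancer cell lines, and its lanes are repeats of one RNA. Each kinase was measured in 1 lane, except PIK3CG and PTK2 with 2 each, so a single kinase has no replicate well. The panel holds no marker of fibroblasts, and the identity of the cells was not checked here.

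The names of these rows are uncertain, which bears on each value below. Tet1 and UHRF1 are at positions 51 and 54 of the lane files, among positions 43 to 57, where levels and names disagree. The row named MyrFlag, for the tag of the introduced kinases, at position 43, had a geometric mean of 1475 normalized counts in the reference RNA and 2735 in SW39, and the row named ZBTB33, at position 55, had 12 in the IMR90 controls and 16975 in the kinase wells. If the 3 vector rows MyrFlag, NeoR and PuroR, named at the head of these positions, had their counts at the end of them, the counts beside the name Tet1 would be those of UHRF1 and the counts beside the name UHRF1 those of ZBTB4. The table of all lanes holds no gene names, and whether the names are displaced was not tested. "Tet1 row" and "UHRF1 row" below therefore mean the counts beside that name, not a settled measurement of the gene.

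UHRF1 binds hemimethylated DNA behind the replication fork and brings in DNMT1, the enzyme that copies DNA methylation to the new strand, and its transcription is known to be tied to cell division through E2F factors. TET1 oxidises methylcytosine and so opens a route to demethylation, and it is known for high levels in pluripotent and germ cells and low levels in fibroblasts. ATAD2, a bromodomain ATPase that is often abundant in tumors, is also known as an E2F target and serves here as the comparator row.

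The TET1 gene lies on chromosome 10 (68560337 to 68694487) and the UHRF1 gene on chromosome 19 (4903080 to 4962154) in GRCh38.p14, and the accession of each probe is listed under that symbol in the RefSeq gene table. The promoters are shown because the comparator ATAD2 is a known E2F target, and they can be read for the letters of E2F sites. Each is a RefSeq window of 300 bases on the plus strand, written 5′ to 3′ in lower case, with E2F site letters in capitals.
TET1, first promoter, chr10:68560087-68560386: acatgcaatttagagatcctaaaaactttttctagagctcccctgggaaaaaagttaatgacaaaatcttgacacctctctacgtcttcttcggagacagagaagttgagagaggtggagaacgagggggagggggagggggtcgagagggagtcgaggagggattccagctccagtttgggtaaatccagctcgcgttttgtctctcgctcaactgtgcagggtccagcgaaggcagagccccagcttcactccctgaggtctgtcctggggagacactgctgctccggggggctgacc
UHRF1, first promoter, chr19:4909251-4909550: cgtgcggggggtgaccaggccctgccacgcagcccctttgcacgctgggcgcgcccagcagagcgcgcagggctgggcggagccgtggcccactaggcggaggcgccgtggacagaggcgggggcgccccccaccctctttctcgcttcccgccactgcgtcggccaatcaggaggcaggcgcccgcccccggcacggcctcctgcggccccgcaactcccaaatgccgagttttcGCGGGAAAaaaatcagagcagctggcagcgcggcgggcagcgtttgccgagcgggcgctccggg
UHRF1, second promoter, chr19:4909894-4910193: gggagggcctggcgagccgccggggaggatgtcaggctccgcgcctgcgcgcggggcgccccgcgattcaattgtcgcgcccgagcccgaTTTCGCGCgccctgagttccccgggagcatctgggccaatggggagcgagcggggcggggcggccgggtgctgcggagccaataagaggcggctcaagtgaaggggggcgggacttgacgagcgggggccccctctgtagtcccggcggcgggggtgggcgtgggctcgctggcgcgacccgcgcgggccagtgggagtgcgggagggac
The letters searched on both strands were TTTCCCGC, TTTCGCGC, TTTGCCGC and TTTGGCGC. The first UHRF1 promoter held TTTCCCGC on the opposite strand, and the second held TTTCGCGC on the strand shown. The third UHRF1 promoter and all 3 TET1 promoters in the table held none of these letters. Of all 35116 promoters in the table, 1.63% held TTTCCCGC, 0.515% held TTTCGCGC and 3.31% held at least 1 of the 4. The UHRF1 promoters had 36, 40 and 46 CG dinucleotides and the TET1 promoters 10, 6 and 11, against a median of 14 over all promoters. A match is a description of the sequence, and no match says only that these letters are not in the window.

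Counts of each lane were scaled by the 6 spiked positive controls and then by the housekeeping genes PGK1, TBP and TUBB2A, and the values below are such normalized counts. Total counts ranged from 29629 to 340763 in kinase lanes and from 108768 to 233536 in the other lanes. The HK1 lane held 1 raw count in each of the 2 rows and was therefore not used. In all other 196 lanes both rows lay above the negative-control level, the mean plus 2 SD of the 8 negative controls of the lane.

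The Tet1 row had 387 normalized counts in the first IMR90 control and 366 in the second. It had 3197 and 3593 in the SW39 wells. In the 6 reference lanes it had 1076, 1158, 1028, 1241, 1175 and 1176. The 3 groups did not overlap, with SW39 highest and the controls lowest. The means were 377 ± 15.1 in the controls (SD, n = 2), 3395 ± 280 in SW39 (SD, n = 2) and 1142 ± 76.8 in the reference (SD, n = 6). In bulk RNA, more cells with a transcript and more RNA per cell cannot be told apart. On the log2 scale the Tet1 row was 3.17 higher in SW39 than in the controls, a ratio of 8.98, and this was the 2nd highest ratio of the 57 rows, after ATAD2 with 14.8. At least a 2-fold higher level in SW39 was found for 1 of the 2 rows chosen and for 14% of all rows, and since SW39 chose the rows nothing is read from this.

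The UHRF1 row had 698 normalized counts in the first IMR90 control and 882 in the second. It had 579.5 and 723 in the SW39 wells. In the reference lanes it had 337, 380.2, 278, 343, 349 and 296. The SW39 values overlapped with those of the controls, whereas the reference lanes all lay below both groups. The means were 790.3 ± 130 in the controls (SD, n = 2), 651 ± 101.6 in SW39 (SD, n = 2) and 330.5 ± 37.4 in the reference (SD, n = 6). The ratio of SW39 to control was 0.825, which is 43rd of the 57 rows in descending order, and the ratio of reference to control was 0.42, or 56th. A level at least 2-fold lower than in the controls was found in the reference for 1 of the 2 rows and for 5.26% of all rows, and in SW39 for 0 of the 2 and for 1.75% of all rows.

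In the reference the Tet1 row was 1.60 higher than in the controls on the log2 scale, a ratio of 3.02. This was 21st of the 57 rows, and 2nd, after ATAD2, of the 13 with a median above 100 raw counts in kinase lanes. At least a 2-fold higher level in the reference was found for 1 of the 2 rows and for 68.4% of all rows, most of which are tissue-restricted genes. The SW39 and reference comparisons share the control wells. ATAD2 had 188.7 and 196 normalized counts in the controls. It had 2693 and 3052 in the SW39 wells, and its 6 reference lanes lay between 1480 and 1698. The Tet1 row thus had the order of ATAD2, with SW39 above the reference and the reference above the controls, and the UHRF1 row did not. This order is not particular to them. By geometric mean, the MyrFlag row (2735, 1475 and 681), the PPM1D row (441, 391 and 180) and the Tet2 row (994, 874 and 828) had it too.

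**Figure D1:**
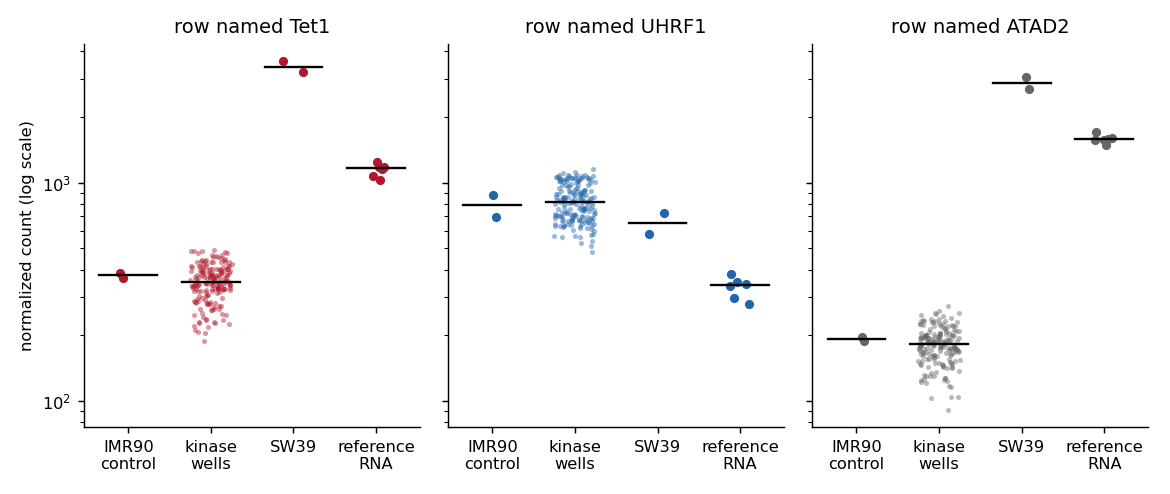
Normalized counts (log scale) of the rows named Tet1, UHRF1 and ATAD2, with 1 point per well or reference lane and a bar at the median of each group. Tet1 and ATAD2 are lowest in IMR90 controls and kinase wells and highest in SW39, whereas the lowest UHRF1 values are those of the 6 reference lanes.

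The housekeeping genes themselves differed between these RNAs, and the scale moved the sizes. On the scale of the 3 genes, TUBB2A was 0.91 lower in SW39 than in the controls (log2) and 1.40 lower in the reference, whereas PGK1 was 0.29 and 0.98 higher. With positive controls only, the difference between SW39 and controls was 3.91 for Tet1 and 0.46 for UHRF1, so the sign of the UHRF1 difference turned. The median of the 57 rows moved with it, from 0.22 to 0.85 in SW39, and by as much as 1.01 in the reference. Relative to that median, UHRF1 was at -0.50 and -0.39 in SW39 and Tet1 at 2.94 and 3.05. In the reference Tet1 was 0.39 and 0.45 above that median, and UHRF1 was at -2.46 and -2.40. Of the 57 rows behind this median, only 13 had a median above 100 raw counts in kinase lanes, so it is not the level of a typical abundant row.

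The ratio of the Tet1 count to the UHRF1 count of a lane does not depend on the scale. The controls had ratios of 0.555 and 0.415, the SW39 wells 5.51 and 4.96 and the reference lanes 3.04 to 3.97, without overlap between the 3 groups. The kinase wells lay between 0.218 and 0.661 (median 0.428), far below SW39 and the reference. All kinase wells had a Tet1 value below both SW39 wells.

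**Figure D2:**
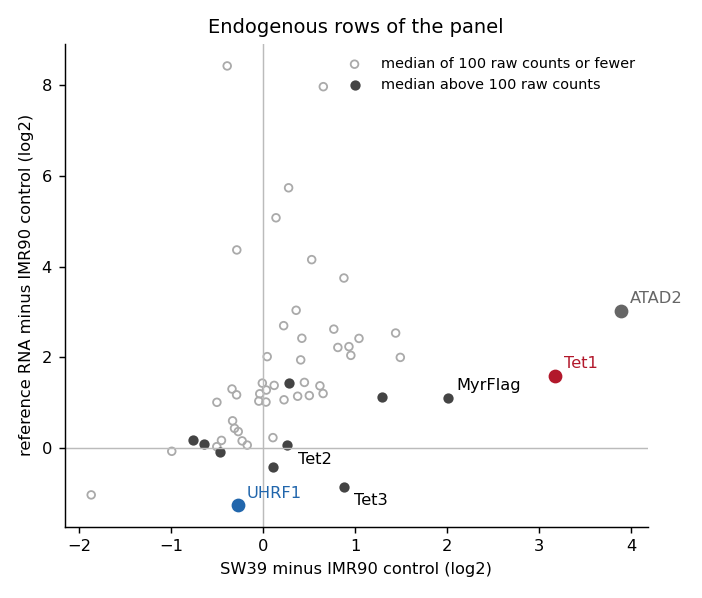
Log2 difference from the IMR90 controls in SW39 (horizontal) and in the reference RNA (vertical) for 56 of the 57 endogenous rows. The ZBTB38 row, at -8.38 on the vertical axis, is outside the plot. Filled points have a median above 100 raw counts in kinase lanes. Tet1 (3.17 and 1.60) and ATAD2 (3.89 and 3.03) lie farthest to the right, with Tet1 well below ATAD2, and UHRF1 lies at the lower edge.

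Kinase wells were compared with the IMR90 controls to ask for a change shared by the kinases, a contrast that did not enter the choice of the rows. Over the kinase wells the Tet1 row had a lowest value of 188.8 normalized counts, a median of 352 and a highest of 492. For the UHRF1 row these were 480, 813 and 1152. The controls lay inside both ranges, with 55.7% of the kinase wells below both controls and 30.1% above both for Tet1, and 26.8% below and 35% above for UHRF1. In edgeR's quasi-likelihood test over the 57 rows, kinase wells minus controls came to -0.10 ± 0.20 on the log2 scale (SE) for Tet1, with a Benjamini-Hochberg adjusted p of 0.77. It was 0.05 ± 0.20 for UHRF1, with an adjusted p of 0.93 by the same test. Neither row passed the threshold of 0.05, which 3.51% of all rows did, namely those named ZBTB33 and ADCY10. The ADCY10 row was near background, above the negative-control level in only 6 of 196 lanes. In an exact two-sided permutation test over all 17020 choices of 2 control wells, p was 0.55 for Tet1 and 0.86 for UHRF1. Neither this test nor that of edgeR had a term for the sample number in the label, which is taken up below. The 95% interval of the difference, from the SE, ran from -0.48 to 0.28 for Tet1 and from -0.34 to 0.43 for UHRF1, so these p-values do not show that the levels were alike. With the second lanes of 3 names left out (IMR90#2, PIK3CG and PTK2), edgeR gave -0.11 for Tet1 and -0.06 for UHRF1, with adjusted p of 0.67 and 0.82.

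Over the kinase wells the SD of the log2 values was 0.29 for Tet1 and 0.28 for UHRF1. Counting error alone gives a median SD of 0.078 and 0.051, and the 6 lanes of one reference RNA had an SD of 0.10 and 0.17. Over all kinase wells together, the spread was therefore larger than that among repeats of one RNA for both rows, and by less for UHRF1.

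A large part of the spread followed the sample number in the label, here cut into blocks of 12 consecutive numbers. The label does not say what such a block was. Blocks held 42.8% of the variance of Tet1 over the kinase wells and 67.1% of that of UHRF1, leaving an SD within blocks of 0.23 and 0.17. Block medians ran from 235 to 433 for Tet1 and from 621 to 1040 for UHRF1, and both rows were lowest in numbers 73 to 84 and highest in numbers 25 to 36. Both controls lay near their own blocks in the UHRF1 row. The first control, number 1, had 698 where the kinase wells of its block had a median of 681.5, and the lane of the second control numbered 13 had 1018 where its block had 972. A second lane labelled as the second control carries number 1 and had 765. The lanes labelled PIK3CG had 929 in the second block and 699.7 in the first, and those labelled PTK2 had 989 and 709. The second lanes of these 3 names carry the numbers 1, 3 and 4, also those of the first IMR90 control, PLK1 and AKT1. In the row named ZBTB38 the second control had 7188 in its lane numbered 13 and 1811 in the lane numbered 1, against 1625 in the first control. The second lanes may therefore be other wells than their labels say, which was not tested. The values given per well nevertheless average lanes of one name, so the 882 of the second control rests on its lanes with 1018 and 765. With the second lanes left out, SW39 minus controls in the UHRF1 row was -0.38 (log2) instead of -0.28. The part of the block in the spread between wells of different kinases was not tested. The tests of kinase wells against controls above had no term for the block, and the controls carry numbers 1 and 13 only. Their SE, interval and p therefore mix the block with the kinase. With numbers 1 to 24 only, second lanes left out and the block as a term, edgeR gave -0.18 for Tet1 and -0.032 for UHRF1 (log2). That fit held 1 control in each block.

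**Figure D3:**
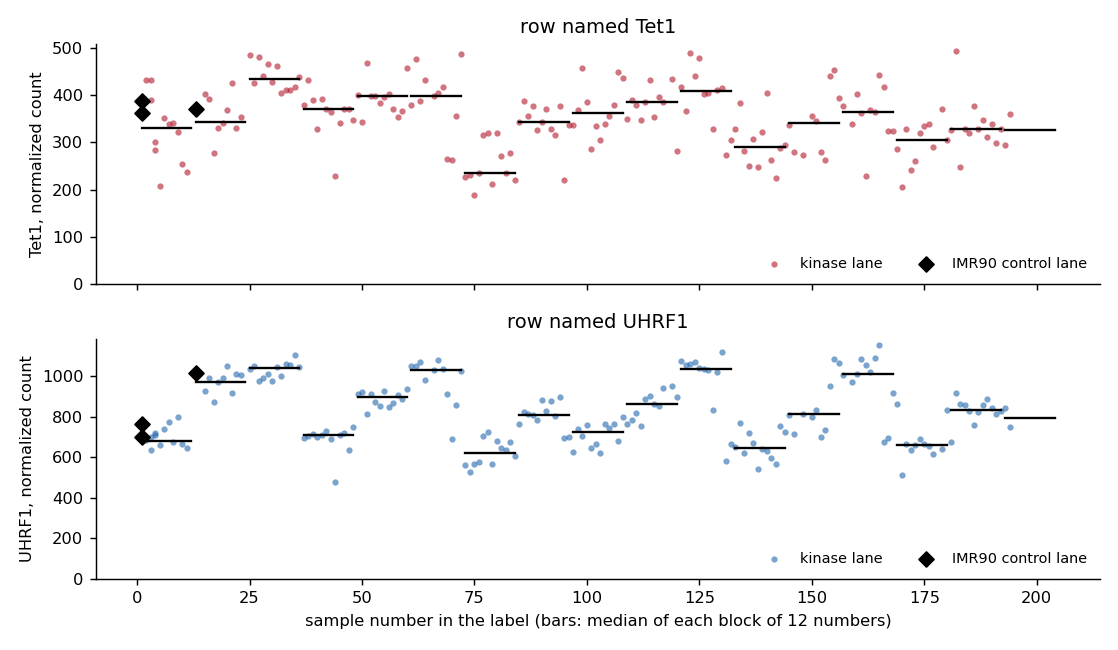
Normalized counts of the Tet1 row (top) and the UHRF1 row (bottom) by sample number, with 1 point per kinase lane, diamonds for the 3 IMR90 control lanes and a bar at the median of each block of 12 numbers. The UHRF1 values step between blocks, from a median of 621 in the lowest to 1040 in the highest, and the control lanes lie at the level of their blocks.

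At the low end the Tet1 row had 3 wells more than 2.5 SD below the mean of the IMR90 wells. PKM2, a glycolytic kinase, had 188.8 normalized counts. MAP3K14 (NIK) and MAP3K7 (TAK1), which both feed NF-kB signaling, had 204.7 and 206.9. MAPK13 (212) and ADCK5 (219) came next. The PKM2 and MAPK13 wells belong to the lowest block, where the median was 235, and lay 0.31 and 0.15 below it on the log2 scale. With positive controls only, none of the 3 wells stayed beyond 2.5 SD, with Z-scores of -1.94 for PKM2, -0.20 for MAP3K14 and -1.95 for MAP3K7, and the 5 wells beyond it on that scale were others. MAP3K7, MAP3K14 and ADCK5 lay 0.67, 0.57 and 0.64 below the medians of their blocks. The next well inside the threshold was thus MAPK13 with a Z-score of -2.38, against -2.51 for MAP3K7.

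No kinase well lay more than 2.5 SD above the mean in either row. The highest Tet1 values were those of PLK3 (492), PI4K2B (489), MAPK14 (486), CDK9 (484) and MAPK7 (480). PLK3, a kinase of the polo family, lay 0.59 above its block median, whereas CDK9 and MAPK7 were 0.16 and 0.15 above theirs, in the highest block. The MAPK14 lane had a total count of 63542, the lowest of these 5 lanes.

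The UHRF1 row had 1 well beyond 2.5 SD, that of the tyrosine kinase MATK, with 480 normalized counts, 0.56 below its block median (log2). With positive controls only its Z-score was -1.27, and the 3 wells beyond 2.5 SD on that scale did not include it. MAP3K14 (511), BLK (527), MAPK12 (542) and LIMK1 (564) followed, with MAP3K14 at a Z-score of -2.36. The highest wells were PIP5K1B (1152), TSSK1B (1120), CLK3 (1106), YES1 (1089) and PCTK2 (1085), and of these only PCTK2 lay more than 0.2 above its block median, at 0.42. Of the 10 lowest wells of each row 6 were shared, namely LIMK1, MAP3K14, MAPK13, MATK, PKM2 and STK32C, and of the 10 highest wells 0 were. The overlap to be found by chance was not tested. Among the shared wells LIMK1, MAPK13 and PKM2 belong to the lowest block. With positive controls only, LIMK1, MAP3K14, MAPK13 and MATK left the 10 lowest wells of both rows. PKM2 stayed among them for Tet1 only, and STK32C was not compared on that scale. Both rows share the scale of the lane. In the MAP3K14 lane the mean of the 3 housekeeping genes was 0.70 above the median of the kinase wells (log2, positive controls only), and with positive controls only the well had a Z-score of 0.13 for UHRF1. On that scale MAP3K8 was at -2.96 for Tet1.

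Over the kinase wells the Tet1 row correlated with ATAD2 at a Pearson r of 0.67 and the UHRF1 row at 0.56. These were the highest and the 3rd highest r of 56 rows, and since the correlation with ATAD2 chose the rows they are given without a test. Wells share the scale of their lane and the block of their sample number. With each block centred on its median, r was 0.67 for Tet1 and 0.47 for UHRF1. Within the 16 blocks with at least 6 wells, r with ATAD2 was above 0 in 16 for Tet1, from 0.15 to 0.90, and in 14 for UHRF1, from -0.50 to 0.90. The 2 rows correlated with each other at 0.65, and at 0.48 after centring.

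The row closest to both was the one named MyrFlag, with an r of 0.75 to Tet1 and 0.76 to UHRF1 among 13 rows with a median above 100 raw counts. After it came ATAD2 (0.67) and UHRF1 (0.65) for Tet1, and Tet1 (0.65) and NeoR (0.62) for UHRF1. Both rows ran against PGK1, 1 of the 3 genes of the scale, with an r of -0.58 each, and against B2M, which is not in the scale, with -0.49 and -0.39. The total count of the lane had an r of -0.10 and 0.05 with them. The part of the housekeeping genes in these correlations was not tested.

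**Figure D4:**
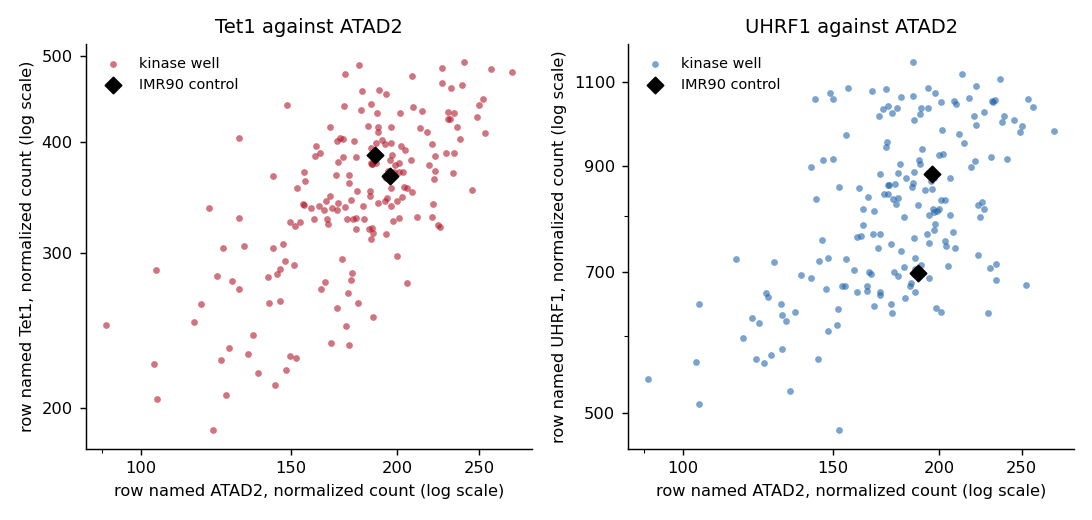
Normalized counts (log scales) of the Tet1 row (left) and the UHRF1 row (right) against the ATAD2 row in the kinase wells, with diamonds for the 2 IMR90 control wells. Pearson r is 0.67 for Tet1 and 0.56 for UHRF1, and the UHRF1 values spread more at a given ATAD2 level.

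Kinases were placed in 17 families by the known kind or function of the named kinase, not by the name alone. MAP3K7, MAP3K8 and MAP3K14 were placed in the NF-kB activating kinases, whereas MAP3K6, with 221 Tet1 counts, was placed in the MAPK and MAP2K cascade. By median, the Tet1 row was highest in the G protein-coupled receptor kinases (409 over 4 wells), the cyclin-dependent kinases with CKS subunits (402 over 11) and the mitotic and checkpoint kinases (395 over 12). It was lowest in the NF-kB activating kinases (229 over 5), with 328 each in the nucleotide, creatine and cofactor kinases and in the TGF-beta family receptors with LIMK, TESK and ILK. Relative to the block medians, the mitotic and checkpoint kinases came first (0.20, log2) and the NF-kB activating kinases last (-0.57), and the cyclin-dependent kinases were at 0.0052. Each well is a different kinase and members of a family can share a block, so a family is not a set of replicates.

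The 5 NF-kB activating kinases did not move as one. MAP3K14, MAP3K7 and MAP3K8 had 204.7, 206.9 and 229 Tet1 counts, whereas TBK1 had 329 and IKBKE 370. In the UHRF1 row MAP3K14 had 511, IKBKE 636, MAP3K7 659.5, TBK1 972 and MAP3K8 1057. With positive controls only, the median of the family in the Tet1 row was -0.070 from that of all kinase wells (log2), against -0.62 on the scale of the 3 genes.

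The UHRF1 row was highest in the cyclin-dependent kinases with CKS subunits (975), AKT, PDPK1, SGK and S6 kinases (920) and PKA and PKC (856), and lowest in the NF-kB activating kinases (660), the mitotic and checkpoint kinases (701) and the MAPK and MAP2K cascade (708). After centring on blocks the cyclin-dependent kinases were at 0.0265 and the NF-kB activating kinases at -0.047 (log2), so the family medians of UHRF1 lay close to those of their blocks.

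The ratio of the Tet1 to the UHRF1 count, free of the scale, was highest in the mitotic and checkpoint kinases, with a median of 0.534 over 12 wells. Of these, 10 lay above the median of their block. It was lowest in the NF-kB activating kinases, with a median of 0.339, and 4 of the 5 lay below their block. MAP3K8 had the lowest ratio of all kinase wells (0.218), from 229 Tet1 counts over 1057 UHRF1 counts. The tyrosine kinase SYK (0.661) and NEK11 (0.647), of the NEK family, had the highest.

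**Figure D5:**
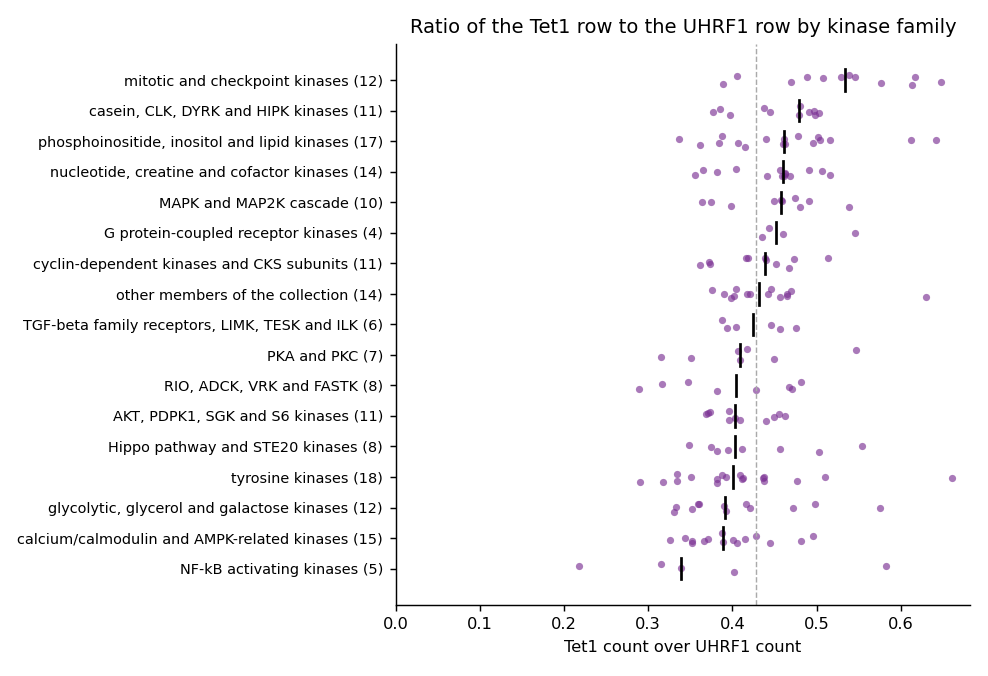
Ratio of the Tet1 to the UHRF1 normalized count in each kinase well (points), by family with its number of wells, with a bar at the family median and a dashed line at the median of all wells (0.428). The mitotic and checkpoint kinases have the highest median (0.534) and the NF-kB activating kinases the lowest (0.339).

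The other rows of DNA methylation and methyl-CpG binding were compared by level. The Tet2 row, a paralog of Tet1, had a geometric mean of 828 in the controls, 994 in SW39 and 874 in the reference. The Tet3 row had 1969, 3609 and 1089. The DNMT1 row, named for the maintenance methyltransferase, was above the negative-control level in 41 of 196 lanes, with 12.3 in the controls, 10.4 in SW39 and 13.8 in the reference. The ZBTB4 row was above it in 22 of 196. These are all levels within a row, and probes of different rows were not compared.

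Several rows did not have the levels that their names lead one to look for. The row named ZBTB33, a methyl-CpG binding protein made in most cells, had geometric means of 12 in the controls, 6.68 in SW39 and 13.6 in the reference, but 16975 in the kinase wells. The row named ZBTB38 had 2421 in the controls, 5889 in SW39 and 9364 in the kinase wells but 6.26 in the reference RNA, which received no vector. The row named MyrFlag, for the tag that only the introduced kinases carry, had 681 in the controls, 2735 in SW39 and 1475 in the reference. It was the row nearest to both Tet1 and UHRF1 over the kinase wells. DNMT1, which dividing cells need, was near background in SW39. The 2 rows chosen can be read against their names as well. TET1 is known for low levels in fibroblasts, and the Tet1 row had 376 in the controls, above the negative-control level in 196 of 196 lanes, and 8.98 times that in SW39. UHRF1 is known to be tied to cell division, and the UHRF1 row had ratios to the controls of 0.825 in SW39 and 0.42 in the reference, on the scale of the 3 genes. The cause was not tested.

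Among the 2 rows, the one named Tet1 was highest in SW39, next highest in the reference RNA and closer to ATAD2 over the kinase wells. The row named UHRF1 was not higher in SW39 or in the reference on the scale of the 3 genes. The names are given here as deposited, with the uncertainty stated at the outset.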

How the data were processed

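RNA of IMR90 kinase wells, IMR90 controls, SW39 and human reference RNA was measured on a Nanostring panel of 75 rows. The authors deposited unnormalized raw counts per row and lane and a table of signal for all lanes, which is the count times 1 factor per lane except in 8 lanes that hold the count itself. That table was used as an alternative. An aligner and a genome build do not apply to these counts.

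From the counts, lanes were scaled by the geometric mean of the 6 positive controls and then of PGK1, TBP and TUBB2A (Python 3.11.15, numpy 2.4.6, pandas 2.3.3), and log2 was taken with a pseudocount of 1. Lanes of one name were averaged. HK1 was left out. Kinase wells and controls were compared with edgeR 4.0.16 on all 57 endogenous rows (R 4.3.3), lanes of one name summed, with alternatives in DESeq2 (1.42.0) and limma (3.58.1), and the fit was tested on simulated data. The SE was derived from edgeR's F statistic. Where nothing says that wells came from separate cultures, p-values measure only the spread between these samples.

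The 2 rows, the comparator and the lists were chosen with earlier results of these data known. Named by rule were the 3 rows closest to each row, its 5 highest and 5 lowest wells, each well beyond 2.5 SD and the 3 highest and 3 lowest families with at least 4 wells. The wells and families at the ends of the Tet1/UHRF1 ratio were named after their values were seen. Promoters were taken from RefSeq (GRCh38.p14).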

Additional observations from a re-analysis of the deposited data

How the results depend on the processing

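Of 259 values recomputed under alternatives for 20 results, 215 counted as the same, 42 moved and 2 reversed. Both reversals were of the UHRF1 difference between SW39 and controls. Some of the 215 could not differ. Leaving out PIP5K2A or lanes with a low total count removed no control, SW39 or reference lane, so differences between those groups kept their main values. The deposited table likewise repeated 3.17 (Tet1) and -0.28 (UHRF1) for SW39 minus controls. The count of 215 therefore does not measure how firm the results are. Differences were judged by the spread between repeats, and tests by the side of the 0.05 threshold. Counts of wells or rows were judged by a fixed ratio, and correlations by the sampling error of r. The test of kinase wells against controls left the adjusted p of both rows above 0.05 under all 12 alternatives, with log2 differences from -0.22 to 0.17 for Tet1 and from -0.12 to 0.31 for UHRF1 and adjusted p of at least 0.21. In the exact permutation test p was at least 0.43 for Tet1 and 0.11 for UHRF1 under the 11 alternatives run for it.

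The scale mattered most, and its cause was not tested. With positive controls only, SW39 minus controls was 3.91 for Tet1 and 0.46 for UHRF1 (from -0.28), the reference minus controls 2.66 and -0.19, Z-scores below -2.5 fell in 5 and 3 wells, 0 of them shared with those on the main scale, and above 2.5 in 1 and 1, the NF-kB family median lay at -0.070 (Tet1) and 0.00 (UHRF1), that of the cyclin-dependent kinases at 0.068 and 0.079, and 7 rows were called. With all 4 housekeeping genes, SW39 was 3.34 (Tet1), the reference 1.90 and -0.95, and r was 0.78 (Tet1 and ATAD2), 0.70 (UHRF1 and ATAD2) and 0.77 (Tet1 and UHRF1). After seeing the data, each gene was left out of the scale in turn. Without PGK1, Tet1 was 3.31 in SW39 and 2.09 in the reference, UHRF1 was -0.76 in the reference and 0 wells of UHRF1 lay below -2.5. Without TBP, Tet1 was 3.48 and 1.80, UHRF1 was 0.032 in SW39 and 2 wells of UHRF1 lay below -2.5. Without TUBB2A, Tet1 was 2.71 and 0.90, UHRF1 was -0.73 and -1.95, and 1 well of Tet1 lay below -2.5.

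With blocks centred, r of Tet1 and UHRF1 was 0.48, and family medians were 0.0052 (cyclin-dependent, Tet1), 0.0265 (cyclin-dependent, UHRF1) and -0.047 (NF-kB, UHRF1). The count of rows called (2) was 4 with TMM factors and 1 each with limma, with rows above the negative-control level and with second lanes left out, and 1 when either control was left out. Paired by number as a replicate block, SW39 minus controls was 3.04 and 3.29 for Tet1 and -0.27 and -0.29 for UHRF1. Leaving out 1 sample or lane gave 3.08 to 3.25 (Tet1) and -0.45 to -0.11 (UHRF1) for SW39, and 1.56 to 1.64 and -1.42 to -1.08 for the reference. The deposited table could give no reference value, since all 6 of those lanes are unscaled in it. With 2 controls the spread between controls limits every difference, and both rows had at least 71 raw counts in each lane used.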
